A study of Homo sapiens with 12 samples.

Results

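RKO is a human colon carcinoma line, and 12 libraries of its polyadenylated RNA fall into 6 groups of 2. The genes described here moved the same way in both derivatives of RKO in which PRDM1 had been knocked out with CRISPR/Cas9, named KO2 and KO5. They come from 6 of those libraries: 2 of wild-type RKO cells, 2 of KO2 and 2 of KO5, with the 4 knockout libraries taken as 1 arm and both derivatives given equal weight. The other libraries came from RKO cells made to overexpress GFP, PRDM1 alpha or PRDM1 beta. Those with GFP serve as a second control, and those with PRDM1 as a readout outside the comparisons with wild type. All 12 libraries set which genes were tested and the spread behind each p-value. All cells grew in the same serum-containing McCoy's medium, the labels name no further treatment or allele, and they do not say whether KO2 and KO5 each grew from a single cell or which part of the gene was cut. Nor do they say that replicates were separate cultures, so p-values measure the spread between these libraries, which may be technical. Of 26364 genes in the files, 12858 had enough reads to test. A gene counts as a shared rise or a shared fall when it passed an adjusted p of 0.05 in the arm, in KO2 and in KO5, each against wild type and in 1 direction. That left 603 shared rises (4.69% of the genes tested) and 689 shared falls (5.36%). The fit gives KO2 and KO5 a mean each, so arm p-values leave out the spread between the derivatives. With the 4 knockout libraries as 1 group, genes called in the arm with both derivatives of its sign numbered 114 rises and 223 falls. With a mean each they numbered 1738 and 1892.

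PRDM1, also called BLIMP-1, is a zinc finger transcription factor with a PR domain that mostly represses its targets by bringing in chromatin-modifying enzymes. It is known for driving B cells to become plasma cells, for setting aside germ cells, and for holding the immature programme of the gut lining before weaning. The beta form starts from an internal promoter and lacks part of the PR domain. A second family enters the results below: the KRAB-type zinc finger genes, most of them in dense clusters on chromosome 19, whose proteins bind DNA and recruit the corepressor TRIM28 to silence transposable elements.

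PRDM1 itself was almost silent in the starting cells. Wild-type libraries had 4 and 4 reads, KO2 libraries 0 and 1, and KO5 libraries 1 and 1, whereas libraries of the alpha form had 11475 and 9681 and those of the beta form 22395 and 28423. The depth-adjusted ratio of wild type to knockout was 3.99, with an exact 95% interval from 0.956 to 23.3, so a loss of transcript was not detectable at this depth, and a small edit would not show in gene counts. The 6 libraries held between 28575682 and 55961821 reads assigned to genes. Keratins KRT8 and KRT18 were abundant, as in an epithelial line, but EPCAM and CDH1, which also define epithelial cells, had 0 reads in each of the 6 libraries, and the gut lining gene VIL1 had 0 to 2. Among other cell types, PTPRC of leukocytes had at most 1 read and PECAM1 of endothelium 0. Only 1 of the 13 leukocyte markers was tested, the lysosomal gene CD68, and it fell by 0.59 on the log2 scale in the arm. The summed leukocyte list lay at 18.0 to 19.2 CPM (reads scaled to library size) in wild type and 11.4 to 13.0 in the knockouts, with 8 markers at 0; nearly all of that sum is CD68 itself, at 18.0 CPM or more in wild type and 11.3 to 12.9 in the knockouts. The part of other cells in the results was not tested beyond these values. In bulk RNA, fewer cells of a type and less RNA per cell cannot be told apart.

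Wild-type libraries differed from those of KO5 and GFP, and little from those of KO2, along the base composition of transcripts. Across 12132 genes with a known transcript, Spearman's rho between GC content and the log2 fold change was -0.45 for the arm, -0.07 for KO2, -0.51 for KO5 and -0.66 for GFP against wild type, a comparison that contains no knockout library. Shared falls had a median GC content of 57.8% and shared rises 41.7%, against 48.4% over the tested genes. Each gene group below is therefore also given by how many members were still called with the GFP libraries as control and with the GC trend removed, an alternative added after seeing the data. By both measures together 149 of the 603 rises and 212 of the 689 falls held. With the GC trend removed there were 447 shared falls in all, the DESeq2 Wald test gave 323, and without wild-type replicate 2 there were 318 shared rises and 392 shared falls, while without KO2 replicate 2 there were 391 shared rises.

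Shared changes were mostly small, and most of the large ones were falls. The median log2 fold change in the arm was 0.17 among the rises and -0.30 among the falls, and the KO2 and KO5 comparisons behind these medians share the same 2 wild-type libraries. In each derivative at least a 2-fold change was reached by 4 rises (0.0311% of genes tested) and 72 falls (0.560%). Of those 72 falls, 10 had no read in any library of at least 1 derivative, so their fitted fold has no meaning as a size, and all 72 remained past 2-fold when a floor of 3 reads per library was used for those 10. KO5 and KO2 differed from each other in 287 of the 689 falls and 209 of the 603 rises, while 54.9% of tested genes differed between them. At the threshold, MYEOV2 and TMOD3 were the last genes inside, at a largest adjusted p of 0.0497 each, and TMEM223 and PAQR8 the first outside, at 0.0502 and 0.0503.

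Many of the large shared falls were zinc finger genes on chromosome 19. Chromosome 19 held 33 of the 72 falls of at least 2-fold, from 945 tested genes. Of its 210 tested zinc finger genes 55 fell (26.2%) and 22 fell by at least 2-fold, whereas 11 of 257 zinc finger genes on other chromosomes fell (4.28%) and 0 of them by 2-fold. The other 735 tested genes of chromosome 19 had 84 falls (11.4%). With GFP as control and the GC trend removed, 54 of the 55 zinc finger falls held. These zinc finger genes are poor in GC for their chromosome, with a median of 42.3% over the 210 against 60.0% over its other genes.

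**Figure D1:**
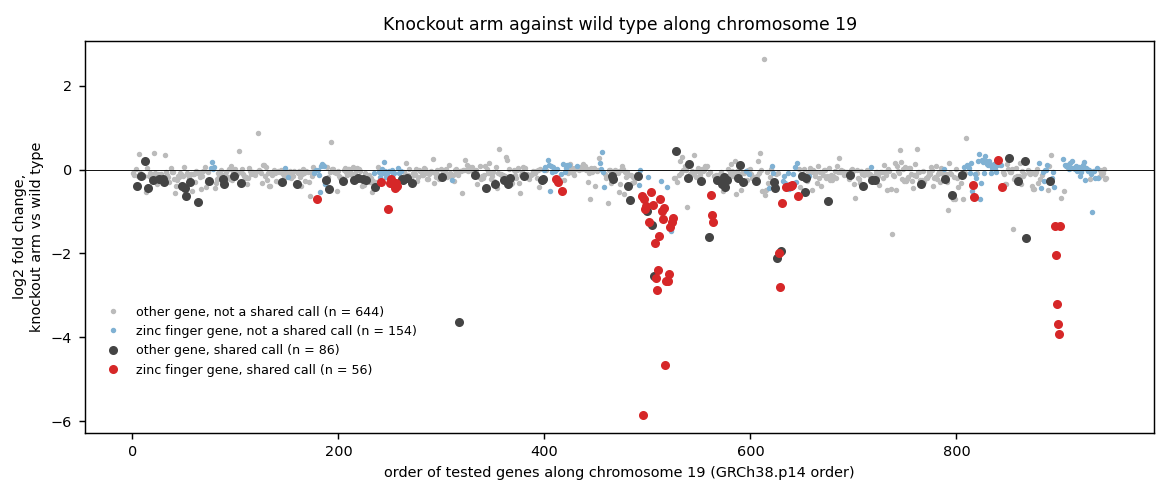
Tested genes of chromosome 19 in their order along the chromosome (x axis, rank) against the log2 fold change of the knockout arm over wild type (y axis). Each point is 1 of 940 genes with reads in both derivatives, red for zinc finger genes that are shared calls; the deep runs are the 3 stretches described in the text, down to -5.85 for ZFP82, with most neighbours on both sides between -0.69 and 0.45.

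The largest falls of chromosome 19 lay side by side in 3 stretches, picked after their values were seen and so given with no test. Order is that of the RefSeq annotation of GRCh38.p14; the counts were made on hg19, and no position is carried over. In the longest stretch, from LINC00665 to ZNF573, 28 of 32 consecutive tested genes fell in both derivatives, 16 of them by at least 2-fold, and 28 of the 32 are zinc finger genes. The exceptions that were not shared calls were ZNF382, ZNF585B, ZNF793 and ZNF781. The median arm log2 fold change of the stretch was -1.25. A second stretch, from ZNF582 to ZNF71, was made of 6 zinc finger genes, and all 6 fell, with a median of -2.63 and a range from -3.93 to -1.34. Another, from KCNN4 to ZNF45, had 5 falls among 6 tested genes, with a median of -1.97, and LYPD5 was the exception. Of the 10 tested genes flanking it, 3 were shared falls. KCNN4, on 2 to 5 reads in each knockout library, was not called against GFP. LOC100505715 of this stretch and LOC728485 of the longest had no value with the GC trend removed. The other shared falls of the 3 stretches held against GFP and with the GC trend removed.

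ZFP82, a KRAB zinc finger gene of the longest stretch, kept almost no reads. Its level was 5.36 and 5.36 CPM in wild type, while KO2 had 0.115 and 0.114 and KO5 0.101 and 0.0352, which rest on 5, 4, 3 and 1 reads. The knockout libraries lay far below wild type, and the GFP libraries, at 5.06 and 5.03 CPM, lay with wild type. The arm log2 fold change was -5.85 (SE 0.44, adjusted p = 2.13e-27, n = 2 libraries per group).

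ZNF569, from the same stretch, fell from a higher level. Wild-type libraries had 56.0 and 54.5 CPM, KO2 1.89 and 2.23, KO5 2.36 and 2.29, and GFP 55.8 and 63.2. The arm log2 fold change was -4.66 (SE 0.094, adjusted p = 1.40e-43), and KO2 and KO5 were not told apart (adjusted p = 0.39). Other genes of this stretch kept part of their expression. ZNF571 went from 57.3 and 58.0 CPM to between 8.58 and 11.6, ZFP30 from 123 and 124 to between 43.2 and 54.3, and ZNF566 from 63.9 and 63.7 to between 34.0 and 43.9. No knockout library reached a wild-type or GFP library in any of the 3.

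The genes at the edges of the longest stretch were mostly not shared calls, though 2 of the 10 flanking it were shared falls. Just before it ZNF146, a zinc finger gene without a KRAB domain, had 237 and 230 CPM in wild type against 217, 222, 250 and 242 in the knockouts, and it was no shared call. Just beyond it SIPA1L3 was not a shared call either, at -0.11 in KO2 and -0.28 in KO5. Among the 5 tested genes on each side, SPINT2, a serine protease inhibitor, rose by a log2 fold change of 0.45, from 2.91 and 2.79 CPM to between 3.41 and 4.08. C19orf33 had 12 and 20 reads in wild type and 0 in the 4 knockout libraries, which is at least 4.45-fold lower in KO2 and at least 3.32-fold in KO5, with 3 reads per library as the floor. LINC00665, the noncoding gene that opens the stretch, had 56 and 82 reads in wild type, 2 and 1 in KO2 and 0 in both KO5 libraries, at least 14.5-fold lower in KO5.

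In the stretch from ZNF582 to ZNF71, ZNF583 was the most abundant gene, at 91.8 and 83.7 CPM in wild type, 18.6 and 19.1 in KO2, 24.2 and 23.8 in KO5, and 90.0 and 94.7 in GFP. ZFP28, another zinc finger gene of the stretch, went from 27.4 and 26.7 CPM to 1.94 and 2.20 in KO2 and 1.85 and 2.43 in KO5. ZNF471 went from 6.31 and 6.63 CPM to between 0.629 and 0.760. These 3 genes were among those picked for knockout libraries apart from wild type, and in ZNF583 KO5 lay above KO2 (difference 0.35, adjusted p = 4.35e-06). In the stretch from KCNN4 to ZNF45, ZNF283 went from 65.8 and 66.5 CPM to between 14.9 and 17.9 and ZNF404 from 16.7 and 17.2 to between 1.77 and 3.34. Zinc finger paralogs share sequence, and overlapping or antisense neighbours such as ZNF529 and ZNF529-AS1 could take each other's reads, since how the authors assigned shared reads and strand is not given in the sources used here.

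Promoter windows were read for these genes because many neighbours moved together, and because PRDM1 binds a known element. The windows are the 250 bases before the annotated start, from RefSeq on GRCh38.p14, and 10073 tested genes had one. The element was searched as AGNGAAAG on both strands. It was in 5.54% of all windows, in 6.71% of those of shared rises and 4.54% of those of shared falls, and in 3 of 49 windows of falling chromosome 19 zinc finger genes (6.12%) against 5 of 131 of those that were not shared falls (3.82%). Windows of the 50 matched genes among the 2-fold falls had a median of 13.5 CpG pairs, against 21 over all windows, and 4 of them (8%) held the element. Chromosome 19 zinc finger windows had a median of 15 CpG pairs where the gene fell and 17 where it was not a shared fall. Some of the windows are printed in lower case, 5′ to 3′ in the direction of the gene, with matches to the element in capitals: ZNF583 with overlapping matches that begin 158 and 152 bases before the start, ZNF283 with a match 236 bases before it, and ZFP82 and IGF2BP3, the leading fall and leading rise, with no match. They lie at chr19:56403764-56404013 (plus strand), chr19:43827071-43827320 (plus), chr19:36418645-36418894 (minus) and chr7:23470492-23470741 (minus). A match is a description of letters, not a site.
ZNF583: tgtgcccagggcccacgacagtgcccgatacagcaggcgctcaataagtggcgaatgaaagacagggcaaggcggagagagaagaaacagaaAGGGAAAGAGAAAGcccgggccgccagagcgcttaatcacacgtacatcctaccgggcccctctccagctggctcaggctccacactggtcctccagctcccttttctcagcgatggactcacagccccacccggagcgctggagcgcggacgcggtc
ZNF283: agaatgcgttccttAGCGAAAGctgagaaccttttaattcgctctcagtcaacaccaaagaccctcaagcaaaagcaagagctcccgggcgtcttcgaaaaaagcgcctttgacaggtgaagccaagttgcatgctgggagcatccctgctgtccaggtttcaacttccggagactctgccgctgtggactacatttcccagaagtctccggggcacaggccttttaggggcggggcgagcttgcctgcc
ZFP82: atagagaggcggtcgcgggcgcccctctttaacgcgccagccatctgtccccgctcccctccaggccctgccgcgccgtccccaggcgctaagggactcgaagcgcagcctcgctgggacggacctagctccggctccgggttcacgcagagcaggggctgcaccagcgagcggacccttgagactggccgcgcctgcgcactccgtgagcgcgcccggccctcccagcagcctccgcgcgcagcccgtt
IGF2BP3: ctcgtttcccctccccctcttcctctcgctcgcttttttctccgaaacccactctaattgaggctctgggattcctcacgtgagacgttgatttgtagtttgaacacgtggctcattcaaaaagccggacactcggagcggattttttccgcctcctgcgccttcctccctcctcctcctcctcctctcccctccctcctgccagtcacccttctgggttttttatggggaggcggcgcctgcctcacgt

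Beside those placed on chromosome 19, 39 further genes fell by at least 2-fold in each derivative (1 of them matched to no chromosome), and 31 of them had under 2 CPM in wild type. SYTL3, a synaptotagmin-like protein of vesicle traffic, was at 7.51 and 7.97 CPM in wild type, while KO2 had 0.392 and 0.6 and KO5 0.337 and 0.281. NNMT, the enzyme that methylates nicotinamide, was at 38.2 and 37.7 CPM in wild type, 7.23 and 6.95 in KO2, 6.54 and 6.09 in KO5, and 39.6 and 39.3 in GFP. Both genes, picked for no overlap with wild type, had knockout libraries below the GFP libraries as well. Their arm log2 fold changes were -4.31 (SE 0.22) and -2.50 (SE 0.063). PCLO, a scaffold protein of the presynaptic zone, fell more in KO5, to 1.05 and 0.880 CPM, than in KO2, to 2.70 and 1.80, from 11.3 and 12.3 (KO5 minus KO2 -1.25, adjusted p = 6.84e-06). HSD3B7, an enzyme of bile acid synthesis, fell by 2.26 on the log2 scale, and MLLT11, a partner in leukaemia fusions, by 2.22.

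Several low-expressed genes in this group are known from cell shape and growth control. SNAI2, the mesenchymal transcription factor Slug, was at 0.870 and 0.759 CPM in wild type and 0.0921 to 0.172 in the knockouts, on 3 to 6 reads a library. It was the only shared call among 6 tested mesenchymal genes, whose median arm log2 fold change was 0.086. PLAT, tissue plasminogen activator, was at 1.12 and 1.61 CPM in wild type and 0.322 to 0.598 in the knockouts. CDKN2A, which encodes the CDK4/6 inhibitor p16, had 17 and 30 reads in wild type and 0 in the 4 knockout libraries, at least 6.5-fold lower in KO2 and at least 4.84-fold in KO5. Its neighbour CDKN2B, encoding p15, was at 20.5 and 20.9 CPM in wild type, while KO2 had 9.31 and 10.9 and KO5 14.8 and 14.6. All 3 of SNAI2, CDKN2A and CDKN2B were also called against GFP and with the GC trend removed.

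**Figure D2:**
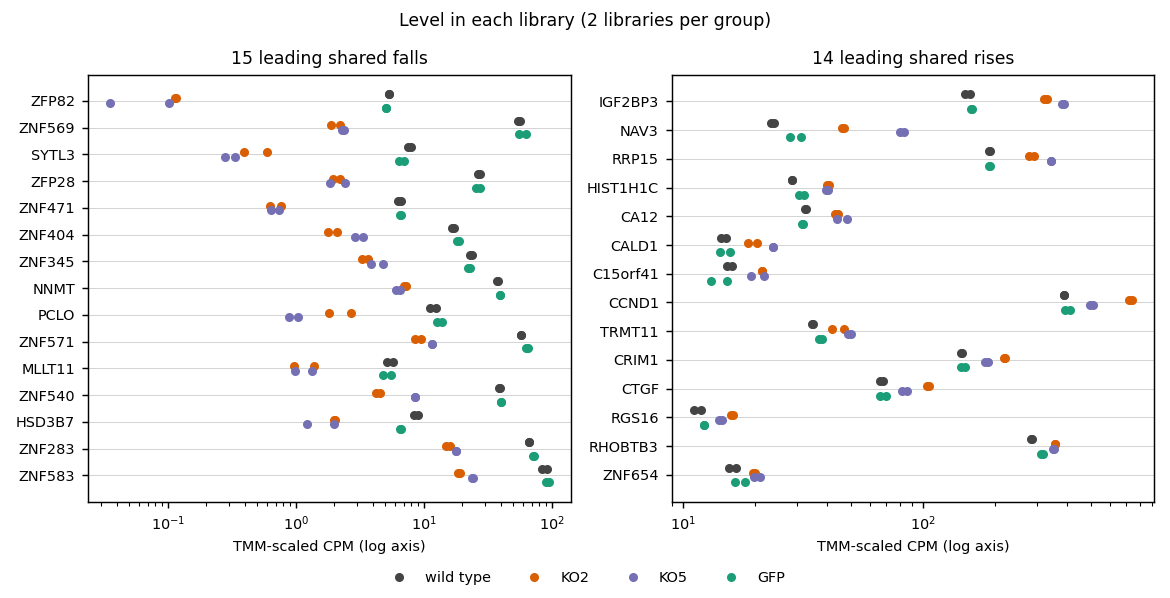
Level of the 15 leading shared falls (left) and 14 leading shared rises (right) in each of 8 libraries, as CPM on a log axis; each point is 1 library, grey for wild type, orange for KO2, purple for KO5 and green for GFP. The genes were picked so that the 4 knockout libraries lie on 1 side of both wild-type libraries, which 601 of 603 shared rises and 686 of 689 shared falls do. The falls span far more of the axis (ZFP82 from 5.36 to below 0.12 CPM) than the rises (IGF2BP3 from 150 to 387).

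Among the rises, IGF2BP3 stood first, an oncofetal protein that binds and stabilises mRNA. It was at 157 and 150 CPM in wild type, 320 and 329 in KO2, 379 and 387 in KO5, and 159 and 160 in GFP. Wild type and GFP lay together and both derivatives well above them, with an arm log2 fold change of 1.20 (SE 0.029, adjusted p = 5.14e-36). NAV3, a microtubule-binding navigator protein, rose from 23.3 and 24.1 CPM to 45.9 and 46.8 in KO2 and to 80 and 83.5 in KO5. Apart from IGF2BP3, the rises of at least 2-fold in each derivative were EDN1, PTCHD4 and HIST2H2BF, but each lay below 2 CPM in all 6 libraries, and EDN1 rested on 10 or 11 reads in each knockout library. Against GFP, EDN1 (largest adjusted p = 0.119) and HIST2H2BF (0.590) were not called, and HIST2H2BF was also lost with any of the 6 libraries left out.

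CCND1, the cyclin that activates CDK4/6, was at 385 and 389 CPM in wild type, 747 and 721 in KO2, 510 and 497 in KO5, and 410 and 393 in GFP. MYC, a gene that PRDM1 represses in lymphocytes, was at 345 and 348 CPM in wild type, while KO2 had 398 and 411 and KO5 392 and 380, an arm log2 fold change of 0.19 (SE 0.028, adjusted p = 8.24e-08). GFP libraries were at 321 and 342 CPM for MYC, below the 4 knockout libraries as well. RRP15, a ribosome biogenesis factor, rose from 191 and 188 CPM to 275, 291, 343 and 341. CTGF, a secreted matrix protein, was at 67.9 and 66.4 CPM in wild type, while KO2 had 106 and 104 and KO5 81.8 and 85.4. All of these rises were also called against GFP and with the GC trend removed.

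By gene list, rises were counted among oncofetal, MYC, ribosomal protein and p53 genes, where 4.69% of all tested genes rose and 5.36% fell. Of 5 tested oncofetal genes 4 rose, IGF2BP3, HMGA2, IGF2BP2 and HMGA1, and 0 fell; 3 held both against GFP and with the GC trend removed, all but HMGA2. HMGA2, a chromatin protein of fetal tissue, was at 108 and 107 CPM in wild type, while KO2 had 253 and 258 and KO5 119 and 125 (KO5 minus KO2 -1.07, adjusted p = 5.06e-31). Of 35 tested MYC and ribosome biogenesis genes 12 rose and 1 fell, with a median arm log2 fold change of 0.11 against -0.0029 over all genes; 6 held, RRP15, RRP12, TSR1, ODC1, NCL and MYC. The ribosomal protein list had 8 rises and 2 falls of 58, with a median of 0.041, and RPS19 and RPS12 held; against GFP both falls changed sign, RPLP1 to 0.077 and RPL8 to 0.057.

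The p53 target list had 9 rises and 1 fall of 27. Over the 27 genes the median log2 fold change was 0.065 in KO2 and 0.35 in KO5. MDM2, the ubiquitin ligase of p53, was at 320 and 315 CPM in wild type, while KO2 had 349 and 344 and KO5 507 and 513 (KO5 minus KO2 0.56, adjusted p = 1.02e-21). CDKN1A, encoding the CDK inhibitor p21, was at 71.6 and 72.4 CPM in wild type, while KO2 had 82.8 and 81.3 and KO5 106 and 104. Against GFP, MDM2 was no longer called (largest adjusted p = 0.316), and 4 of the 9 rises held, BTG2, AEN, CDKN1A and TNFRSF10B. The single fall was PLK2, a stress-induced kinase, at 8.87 and 9.14 CPM in wild type, while KO2 had 6.93 and 6.52 and KO5 1.42 and 1.23.

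For the lists that follow, 4.69% of all tested genes were shared rises and 5.36% shared falls, and 149 rises and 212 falls of 12858 held. Among D cyclins, CDK4/6 and CDK inhibitors, CCND1, CDK6 and CDKN1A rose and CDKN2A, CDKN2B and CDKN1C fell, of 15 tested, and all but CDKN1C held. Mitosis genes had 5 rises and 0 falls of 46, of which CDC20 and PTTG1 held, and DNA replication genes 1 rise of 42. JAG1, a Notch ligand, was at 349 and 347 CPM in wild type, 559 and 553 in KO2, 424 and 417 in KO5, and 320 and 336 in GFP. The Notch target HEY1 fell by 0.57 on the log2 scale, from 5.33 and 5.38 CPM to between 3.35 and 3.84. Both were called under either control, while the Notch list as a whole had 1 rise and 2 falls of 16.

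The cholesterol and matrix lists held falls and no rises, where 5.36% of all tested genes fell. Of 24 tested cholesterol synthesis genes 6 fell and 0 rose, with a median arm log2 fold change of -0.13, and 4 held: IDI1, HMGCS1, ACAT2 and INSIG1. HMGCS1, an early enzyme of the pathway, was at 124 and 120 CPM in wild type and 105, 107, 102 and 103 in the knockouts. INSIG1, the sterol sensor that restrains the pathway, fell far more in KO5, to 54.2 and 49.5 CPM, than in KO2, at 94.0 and 101, from 111 and 106; its shared call was lost without wild-type replicate 1 (largest adjusted p = 0.093) and without KO2 replicate 1 (0.169). Of 19 tested collagen and laminin genes 5 fell and 0 rose, and the laminin chains LAMB1 and LAMB2 held. LAMB2 was at 93.3 and 92.9 CPM in wild type and 64.2 to 70.0 in the knockouts.

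Among the 11 tested genes that PRDM1 represses in lymphocytes, MYC and CDK6 rose and ID3 fell. MHC class I genes had 0 rises and 3 falls of 21 and interferon-stimulated genes 0 rises and 2 falls of 34, beside 5.36% falls over all tested genes. Of these 5 falls 0 held against GFP, and HLA-E, at -0.15 against wild type, was at 0.0045 against GFP. In the list of NF-kB genes 0 of 17 were shared calls, among integrin genes 0 of 12, among PRDM family genes 0 of 12, and among tested genes beside PRDM1 on chromosome 6 0 of 16. These lists are not shown to be unchanged, since a gene had to pass in 3 comparisons to count.

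**Figure D3:**
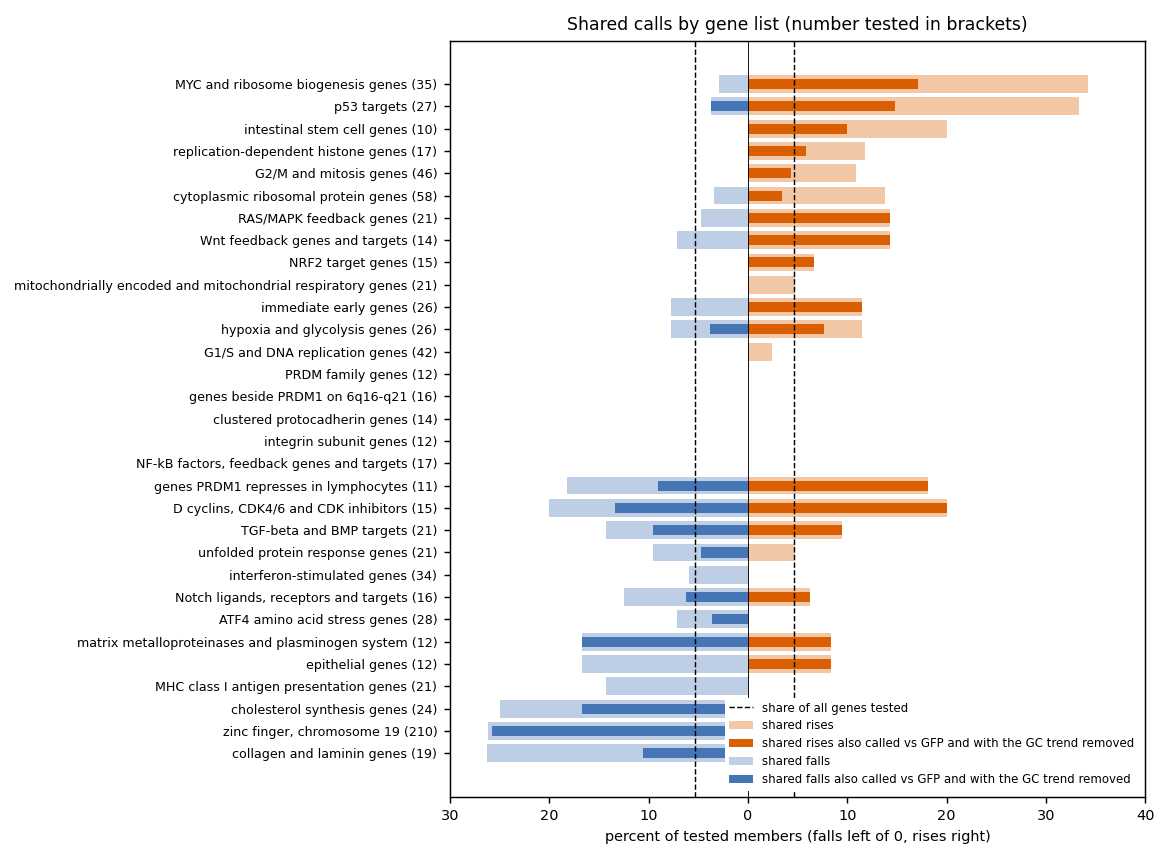
Percent of the tested members of each gene list that were shared rises (right of 0) or shared falls (left of 0); pale bars count all shared calls, dark bars those also called against GFP and with the GC trend removed, and dashed lines mark the share over all tested genes (4.69% and 5.36%). Numbers tested are in brackets; the chromosome 19 zinc finger bar is dark almost to its end, 54 of 55 falls.

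The overexpression libraries, each with GFP as control, share no library with the comparisons that chose these genes. They did enter the read filter and the estimate of spread, so some low-count genes could be tested only through their reads there. For such genes the counts below are not independent of the filter. PSD3, a shared fall called higher with the alpha form, was at 0.18 CPM in wild type and 0.019 in GFP. Many genes that fell in both knockouts were higher when PRDM1 was overexpressed. Of the 689 shared falls, 315 (45.7%) were called higher with the alpha form and 72 (10.45%) lower, where 21.2% of all tested genes were higher and 16.3% lower. With the beta form 306 (44.4%) were higher and 92 (13.4%) lower, where 22.9% and 18.0% of all genes were. Of the 603 shared rises, 200 (33.2%) were lower with the alpha form and 110 (18.2%) higher, and 187 (31.0%) were lower with the beta form and 130 (21.6%) higher. GC content moves with these shares: among the 4044 genes richest in GC, 28.1% of all genes were higher with the alpha form, against 18.4% among the 4045 poorest, where 58 of 102 shared falls (56.9%) were higher. Among the richest genes 196 of 428 shared falls (45.8%) were higher, and among the 4043 in between 51 of 133 (38.3%), beside 18.65% of all genes there. With the GC trend removed from every library, there were 447 shared falls (367 of them among the 689) and 640 shared rises (338 among the 603). Of those falls, 39.4% were higher with the alpha form and 16.1% lower, against 19.5% and 17.6% of all genes. With the beta form 38.0% were higher and 19.2% lower, against 22.4% and 19.3%. The share that was lower was thus close to that of all genes. Of those rises, 29.2% were lower and 18.6% higher with the alpha form. With the beta form 29.8% were lower and 20.9% higher.

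Most genes of the 3 stretches of chromosome 19 were higher with the alpha form. In the stretch from LINC00665 to ZNF573, 27 of 32 genes rose with the alpha form and 0 fell, and 23 rose and 2 fell with the beta form. In the stretch from ZNF582 to ZNF71, 6 of 6 rose with the alpha form and 3 with the beta form, and in that from KCNN4 to ZNF45 5 of 6 rose and 1 fell with the alpha form and 4 rose with the beta form. ZNF583 was 1.33 higher (log2, SE 0.039) with the alpha form and 0.79 higher (SE 0.040) with the beta form. ZNF569 differed between the forms in sign, at 0.57 with alpha and -0.62 with beta, both called against GFP. Over the 210 tested zinc finger genes of chromosome 19, 70 rose and 25 fell with the alpha form, and 47 rose and 34 fell with the beta form, where 21.2% of all tested genes were higher and 16.3% lower with alpha, and 22.9% and 18.0% with beta.

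Among leading rises, the log2 fold changes with the alpha and beta forms were -0.95 and -1.10 for IGF2BP3, -1.84 and -2.30 for RRP15, and -1.55 and -1.64 for CALD1, an actin-binding protein. JAG1 was at -1.49 with alpha and -3.46 with beta. Not every gene moved oppositely, and some leading rises did not. CTGF was called higher with alpha, by 0.28, and was not called with beta. HIST1H1C and ZNF654 were called higher with beta, by 0.15 and 0.19, and not called with alpha. C15orf41 and RGS16 were called with neither form. NNMT fell in both knockouts and also with both forms, at -1.99 and -2.86, and PCLO likewise at -1.27 and -2.87. CDKN1A rose in both knockouts and with both forms, by 0.69 each. MYC was at -0.09 with alpha (adjusted p = 0.015) and 0.03 with beta (adjusted p = 0.53).

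**Figure D4:**
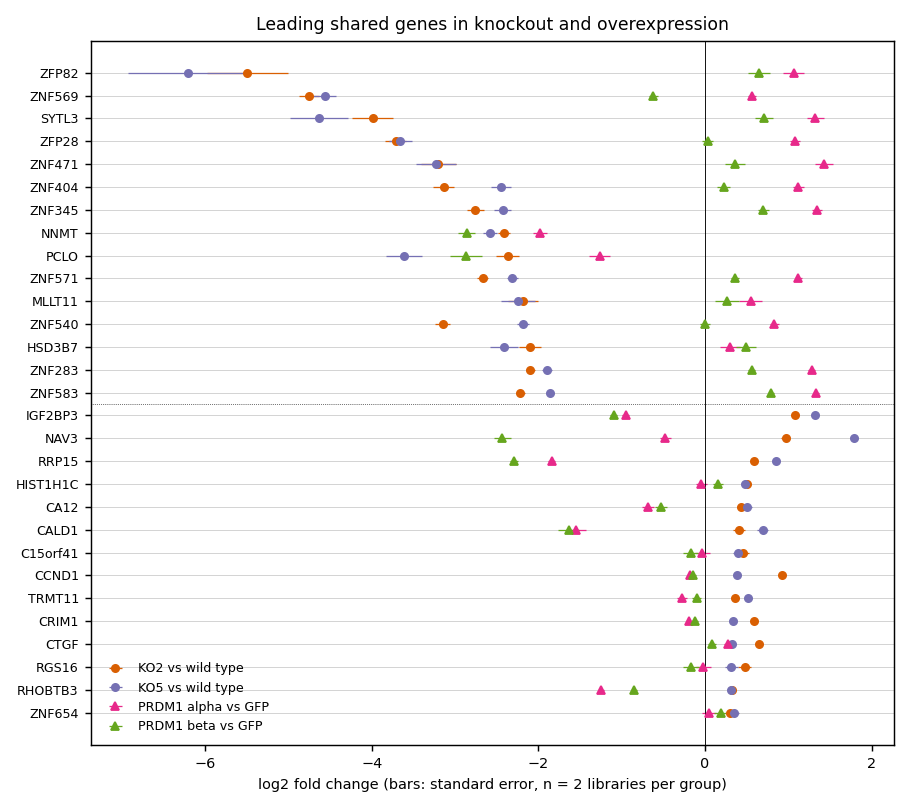
Log2 fold change of 29 leading shared genes in KO2 and KO5 against wild type (circles) and in cells overexpressing PRDM1 alpha or beta against GFP (triangles), with bars for the standard error (n = 2 libraries per group). Zinc finger genes in the upper block lie left of 0 in the knockouts and mostly right of 0 with the alpha form; NNMT and PCLO lie left in each comparison, and IGF2BP3 and RRP15 lie right in the knockouts and left with both forms.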

How the data were processed

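Per the labels, libraries were made from polyadenylated RNA with a stranded kit. The authors deposited raw counts of reads for each gene symbol, 1 file per library. Per the submitters' processing notes TopHat, Bowtie2, Cufflinks and genome build hg19 were used; versions, the read counter and its use of strand are not given in the sources used here. Entries for reads in no gene (9.75% to 10.8% of the 6 libraries' reads) and ambiguous reads (1.66% to 1.75%) were dropped. The authors' deposited comparison tables were not used here.

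Genes with enough reads were tested with edgeR 4.0.16 in R 4.3.3 (TMM scaling, quasi-likelihood F-test, robust fit of 6 group means over the 12 libraries, common biological variation 2.18%, Benjamini-Hochberg over 12858 genes). CPM are TMM-scaled, and SE are Wald errors of the fit. With 2 libraries per group the other groups set the spread. DESeq2 1.42.0 was an alternative. Transcript GC content was from GENCODE v29, chromosome from RefSeq (12650 of the 12858 genes matched).

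Named genes were PRDM1, MYC, the 15 largest shared rises and falls (ranked by the smaller derivative change, mean of at least 5 CPM in some group, no library overlap, no LOC, noncoding or antisense names), up to 3 shared members per list with the lowest p, and those next to the threshold; further genes were named after their values were seen. Some genes that this rule names are not reported here. Members and lists were chosen with earlier results of these data known, so no list's count is independent evidence. Reads carry no molecular identifiers, so intervals and floors cover counting error only.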

Additional observations from a re-analysis of the deposited data

Results flagged for a closer look

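Among the 30 leading shared genes, 15 differed in size between the derivatives by the edgeR test of KO5 minus KO2 (log2, adjusted over 12858 genes, n = 2 libraries per group), although both moved the same way from wild type. Among the rises, the change was larger in KO5 for NAV3 (difference 0.82, adjusted p = 1.55e-20), CALD1 (0.28), RRP15 (0.27), IGF2BP3 (0.24) and TRMT11 (0.16). It was larger in KO2 for CCND1 (-0.54, adjusted p = 2.77e-21), CTGF (-0.33) and CRIM1 (-0.25). Among the falls, PCLO fell further in KO5 (-1.25). The zinc finger genes of chromosome 19 that differed all kept more expression in KO5: ZNF540 (0.97, adjusted p = 9.64e-12), ZNF404 (0.69), ZNF571 (0.36), ZNF583 (0.35), ZNF345 (0.33) and ZNF283 (0.20). Over all genes tested 54.9% differed between KO5 and KO2.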

How the results depend on the processing

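The 30 leading genes stayed shared calls under each alternative run on them except the test for a change beyond 1.5-fold (glmTreat), which kept 18. Counts moved more. That test gave 3 shared rises, 65 shared falls and, for the looser reading (arm called, both derivatives of its sign), 7 rises and 95 falls, where the main values are 603, 689, 1738 and 1892. The DESeq2 Wald test gave 323 shared falls and 1144 looser falls. Removing the GC trend gave 447 and 1149, and with the replicate block 448 and 1146. GFP as control gave 1180 looser falls. Treating the 4 knockout libraries as 1 group gave 114 looser rises and 223 looser falls. DESeq2 size factors gave 677 shared rises and 654 shared falls. Leaving out 1 library gave 318 to 512 shared rises, 392 to 628 shared falls, 1041 to 1681 looser rises and 1108 to 1798 looser falls; the lowest of each came without wild-type replicate 2, and without KO2 replicate 2 shared rises were 391. HLA-E (0.0045), RPLP1 (0.077), RPL8 (0.057) and JUNB (0.0030) changed sign with GFP as control, and HLA-C (0.044, with the block 0.043) and RPL8 (0.028) with the GC trend removed. The causes were not tested. Same-numbered replicates deviated together in some groups and oppositely in others (correlations from -0.29 to 0.41 over 6419 genes), so the numbers do not pair the libraries; the replicate block gave 584 shared rises, 679 shared falls and 1705 and 1852 looser ones. Depth limits genes under about 2 CPM, where a few reads set the fold.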

Other observations

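Genes outside the lists also moved in both derivatives; they were picked after their values were seen. MET, the receptor of hepatocyte growth factor, was at 93.7 ± 0.46 CPM in wild type (SD, n = 2 in each group), 110.4 ± 0.82 in KO2 and 136.6 ± 2.3 in KO5, and its log2 fold changes were -0.85 with the alpha form and -1.09 with the beta form. ANXA1, an annexin of inflammation control, rose by a log2 fold change of 0.12 in KO2 and 0.74 in KO5 and was at -1.16 and -2.87 with the forms. FLNA, an actin crosslinker, was at -0.64 in KO2 and -0.91 in KO5 and rose by 0.62 with alpha and 0.48 with beta. TGM2, a crosslinking transglutaminase, was at -0.29 in KO2 and -1.07 in KO5 and rose by 3.57 and 3.68. SEMA3A, an axon guidance ligand, was at -0.80 in KO2 and -4.35 in KO5 and rose by 3.44 and 2.58. SEMA3D, a ligand of the same family on chromosome 7, was at 2.25 ± 0.064 CPM in wild type and 0.029 ± 0.040 in KO2, with 0 reads in KO5, and it fell with both forms. The tropomyosins moved apart, TPM1 rising by 0.56 in KO2 and 0.26 in KO5 while TPM2 was at -0.26 and -0.78.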
